A study of Mus musculus with 2 samples.

Results

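The endoplasmic reticulum (ER) chaperones described here were 10 genes of the 31053 in the deposited count matrices: Hspa5, Hsp90b1, Calr, Canx, Pdia3, Pdia4, Pdia6, Dnajb9, Herpud1 and Sdf2l1. They were chosen by name as ER folding genes and targets of the unfolded protein response, and all 10 were found in both matrices. They were measured as unique molecular identifiers (UMIs, 1 per captured transcript) in single cells of B16F10 tumours, a mouse melanoma line grown in C57BL/6 hosts. All hosts carried Rosa26::CreERT2, a tamoxifen-inducible Cre recombinase expressed in every tissue, were 11 weeks old and had been given tamoxifen by gavage. In Atf4 WT/WT hosts both Atf4 alleles were intact, and in Atf4 Δ/Δ hosts the loxP-flanked Atf4 exons were removed after tamoxifen (Atf4 WT and Atf4 KO in the plots). Atf4 is the transcription factor of the integrated stress response. The grafted B16F10 cells carried no floxed allele and kept their own Atf4 in both hosts, and 2 small tumours were pooled into 1 library per genotype. The comparison addresses how these genes stand in each tumour cell class when the host lacks Atf4. With 1 library per genotype no p-value is given: intervals are 95% and cover counting error only, and a difference between libraries cannot be told apart from a difference between these tumours.

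Proteins that enter the secretory pathway fold inside the ER. When unfolded proteins build up there, the sensors PERK, IRE1 and ATF6 start the unfolded protein response: PERK slows translation and favours ATF4, IRE1 splices the Xbp1 transcript, and ATF6 is cut to release a transcription factor. ATF6 and spliced XBP1 raise chaperones and degradation factors, while ATF4 raises genes of amino acid supply and redox control. Fibroblasts secrete collagen, and macrophages many glycoproteins, so both rely on this machinery.

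The ATF6 and XBP1 factors act through short promoter elements, and these are shown here because they are what ties most of the members together beyond their names. The 250 bases before each gene start were taken from RefSeq promoters (GRCm38.p6), all 10 members were matched, and both strands were searched. The ER stress response element (ERSE, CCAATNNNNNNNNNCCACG) was found in 37 of 32851 promoters (0.113%) and in 5 of the 10 members. With at most 1 mismatch it was found in 432 promoters (1.32%) and in 7 members, Pdia3 and Pdia4 being added. ERSE-II (ATTGG and CCACG parted by any 1 base) was found in 10 promoters (0.0304%), Herpud1 among them. The CARE element of ATF4 and its dimer partners (TGATGNAA) was found in 1134 promoters (3.45%) and in Herpud1 alone of the members. The UPRE core (TGACGTG) was found in 542 promoters (1.65%) and in Hspa5 alone of the members. No exact match to any of the 4 elements was found for Pdia3, Pdia4, Dnajb9 or Sdf2l1, which says only that these letters are not in this window. No 2 of the windows printed here overlap. Each window is written 5′ to 3′ along the gene, with the fixed bases of the element in capitals:
Hspa5 ERSE, chr2:34772020-34772048, plus strand: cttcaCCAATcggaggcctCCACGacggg
Hspa5 UPRE, chr2:34771928-34771944, plus strand: agcaaTGACGTGagttg
Hsp90b1 ERSE, chr10:86705633-86705661, minus strand: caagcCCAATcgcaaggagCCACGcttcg
Hsp90b1 ERSE in reverse, chr10:86705528-86705556, minus strand: gagtgCGTGGtgaggcacgATTGGtgagt
Calr ERSE in reverse, chr8:84847070-84847098, minus strand: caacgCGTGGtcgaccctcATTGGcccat
Canx ERSE, chr11:50325795-50325823, minus strand: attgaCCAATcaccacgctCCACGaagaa
Pdia6 ERSE, chr12:17266486-17266514, plus strand: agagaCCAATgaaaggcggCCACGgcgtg
Herpud1 ERSE-II, chr8:94386372-94386392, plus strand: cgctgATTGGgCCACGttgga
Herpud1 CARE in reverse, chr8:94386312-94386329, plus strand: gcgggTTgCATCAgcccg
A match of letters is a description and not a binding site. Binding was not measured.

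The WT library held 38417113 UMIs over 6304 barcodes and the Δ/Δ library 38290024 over 5474, and 3861 and 3557 cells passed the filters, with a median of 3920 and 6279 UMIs. The libraries shared 10 barcodes. Marker genes, none of them a member, assigned 1716 WT and 1752 Δ/Δ cells to melanoma, 192 and 238 to fibroblasts, 919 and 723 to macrophages, 200 and 107 to monocytes, 67 and 24 to endothelial cells, and 23 and 11 to T/NK cells, too few to describe. No class was assigned to 724 and 691 cells. As a check of the labels, Atf4 was at 261 CPM (UMI counts scaled to 1e6 UMIs in the summed class) in WT and 62.7 in Δ/Δ fibroblasts, at 179 and 44.2 in macrophages, and at 226 and 203 in melanoma cells.

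The libraries differed in the sex of the host cells. The labels describe male and female hosts pooled for both genotypes, but a UMI of a Y-linked gene was seen in 0 of 1421 host cells of the WT library, which allows a share of up to 0.211%, and in 189 of 1114 (17.0%) of the Δ/Δ library. In the host classes, genotype therefore cannot be told apart from sex when all cells are used. The values of the members in fibroblasts, macrophages and endothelial cells are given beside those in the cells that carried Xist but nothing Y-linked, called Xist cells, which numbered 155 WT and 61 Δ/Δ fibroblasts, 667 and 77 macrophages, and 50 and 9 endothelial cells. Within the Δ/Δ library, the summed 10 members were lower in cells with a Y-linked UMI than in Xist cells, with a log2 ratio of −0.28 (−0.40 to −0.15) in fibroblasts and −0.25 (−0.38 to −0.13) in macrophages. Most Δ/Δ cells carried neither, 126 of 238 fibroblasts and 529 of 723 macrophages. Their sums were at 3631 and 3194 CPM, below 3794 and 3433 in cells with a Y-linked UMI and 4591 and 4096 in Xist cells. With 2 tumours pooled, sex cannot be told apart from tumour in these values. Free melanoma RNA also reached the host cells. It was estimated from melanoma markers at 4.39% of WT and 6.86% of Δ/Δ fibroblast UMIs and at 6.51% and 7.25% of macrophage UMIs, and at these shares it would carry from 1.95% to 23.9% of a member's measured level in fibroblasts and from 2.51% to 12.4% in macrophages.

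Every cell class expressed the members, with an order of classes that differed by gene. In the WT library, fibroblasts held the highest level of 5 of the 10 members, although for Pdia4 the first place was within counting error. Calr, the soluble lectin chaperone that holds glycoproteins for folding, was at 1201 CPM (1124 to 1283) in WT fibroblasts, 1058 (1017 to 1100) in macrophages, 845 in monocytes, 839 in melanoma cells and 693 in endothelial cells. Hsp90b1 (GRP94), the ER member of the HSP90 family, was at 1109.6 CPM in fibroblasts and 939 in melanoma cells, above 788 in macrophages, 680.5 in endothelial cells and 602 in monocytes. The disulphide isomerases Pdia3 and Pdia6 were also highest in WT fibroblasts, at 548 and 621 CPM. Pdia4 was at 162 CPM (134 to 193) there, an interval that overlapped those of melanoma cells, macrophages and endothelial cells. Hspa5 (BiP), the HSP70 of the ER lumen that binds unfolded chains and the 3 sensors, was instead highest in monocytes at 1205 CPM, followed by macrophages at 1006, fibroblasts at 890.1, endothelial cells at 825 and melanoma cells at 757. The endothelial interval, 714 to 947 CPM, overlapped those of both fibroblasts and melanoma cells. Canx, the membrane-bound lectin chaperone, was highest in melanoma cells in both libraries, at 433 and 407 CPM. In the Δ/Δ library that first place was within the counting error of endothelial cells. Dnajb9 (ERdj4), a J-domain partner of BiP, was highest in monocytes, at 171 CPM in WT, and lowest in melanoma cells, at 33.0. The WT monocyte interval, 121 to 234 CPM, overlapped that of endothelial cells. Sdf2l1, which acts with BiP and J-domain proteins, was at 150.3 CPM in WT macrophages against 32.3 in fibroblasts and 28.9 in endothelial cells.

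**Figure D1:**
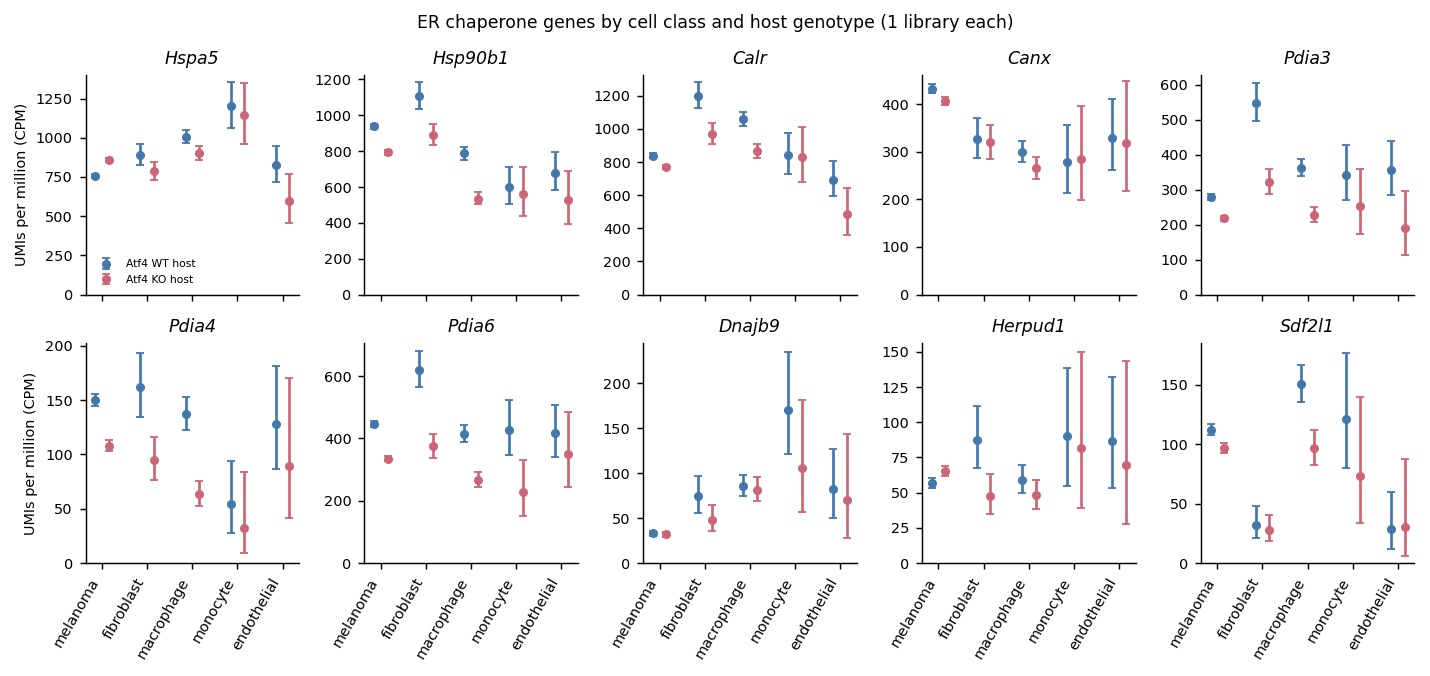
UMI counts scaled to 1e6 UMIs (CPM) of each of the 10 members in 5 cell classes, for the Atf4 WT host (blue) and the Atf4 KO host (red). Points are sums over the cells of a class in 1 library and bars are exact 95% Poisson intervals. Calr, Hsp90b1, Pdia3 and Pdia6 are highest in WT fibroblasts, Hspa5 and Dnajb9 in monocytes and Canx in melanoma cells. The Dnajb9 interval of monocytes and the Canx interval of KO melanoma cells overlap those of endothelial cells.

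In fibroblasts all 10 members were lower in the Δ/Δ library, 8 of them with an interval off 0, and the summed level was 5053 CPM in WT and 3879 in Δ/Δ, a log2 ratio of −0.38 (−0.45 to −0.32). The share of all genes with an interval off 0 is not given for any class, so such counts describe the members only. The disulphide isomerases and Herpud1 were the lowest of the members relative to WT. Past a fold of 1.5 there were 5 of 10 members on the lower side, where 12.4% of the 4458 genes with at least 50 UMIs in fibroblasts lay, and 0 on the higher side, where 9.51% lay. The median log2 ratio of the members was −0.47 beside −0.03 over all genes. In Xist cells the summed log2 ratio was −0.14 (−0.25 to −0.03), from 5056 CPM in WT to 4591 in Δ/Δ, and of 9 members with at least 50 UMIs only Herpud1 was past 1.5-fold lower, where 17.3% of genes were, and none was higher, where 8.44% were.

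Among the disulphide isomerases, which make and reshuffle disulphide bonds, Pdia3 (ERp57), the partner of the lectin chaperones, was at 548 CPM in WT and 321 in Δ/Δ fibroblasts, a log2 ratio of −0.77 (−0.99 to −0.56). In Xist cells Pdia3 was at 526 and 369 CPM, −0.51 (−0.89 to −0.15). Pdia6, which works beside BiP, was at 621 and 374 CPM, −0.73 (−0.93 to −0.53), and at −0.38 (−0.72 to −0.05) in Xist cells. Both were thus lower in Δ/Δ fibroblasts in either set of cells, by a smaller amount within Xist cells. Pdia4 (ERp72) was at 162 and 94.6 CPM, −0.77 (−1.18 to −0.37), but in Xist cells, with 106 and 27 UMIs, the interval included 0 at −0.34 (−1.003 to 0.29).

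The abundant luminal chaperones differed less. Hspa5 was at 890.1 CPM in WT and 786 in Δ/Δ fibroblasts, a log2 ratio of −0.18 (−0.33 to −0.03), and at −0.05 (−0.30 to 0.20) in Xist cells. With a gate of 2 in place of 3 markers the Hspa5 ratio was 0.23 and the summed ratio −0.20. Hsp90b1 was at 1109.6 and 891 CPM, −0.32 (−0.46 to −0.18), and at 0.01 (−0.21 to 0.23) in Xist cells. For these 2 genes the difference seen over all fibroblasts was not seen within Xist cells, while within the Δ/Δ library Hsp90b1 was lower in cells with a Y-linked UMI than in Xist cells by a log2 ratio of −0.46 (−0.73 to −0.20). Of the lectin chaperones, Calr was at 1201 and 969.6 CPM, −0.31 (−0.44 to −0.18), and at −0.14 (−0.36 to 0.08) in Xist cells. Canx was at 327 and 319.8 CPM, −0.03 (−0.28 to 0.21), and at 0.25 (−0.15 to 0.63) in Xist cells.

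Herpud1, which helps move misfolded proteins out of the ER for degradation, was at 87.5 CPM in WT and 47.3 in Δ/Δ fibroblasts, a log2 ratio of −0.89 (−1.47 to −0.32). It was the member furthest from WT also in Xist cells, at −1.28 (−2.67 to −0.14), on 53 and 7 UMIs, and with a gate of 2 markers it was at −0.25. It is the only member whose promoter window holds the CARE element printed above, which was found in 3.45% of all promoters. A link between that element and the level of Herpud1 was not tested. Dnajb9 was at 74.1 and 48.3 CPM, −0.62 (−1.21 to −0.03), and at −0.01 (−0.96 to 0.85) in Xist cells. Sdf2l1 had only 24 and 27 UMIs in fibroblasts, 32.3 and 27.8 CPM, and a difference was not detectable at this depth, nor in Xist cells, at −0.50 (−2.26 to 0.94).

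A few of the gated Δ/Δ fibroblasts clustered with other cells and carried much of some members. There were 5 such cells with 63 Hspa5 UMIs, 58 of them in 1 cell, and 16 Atf4 UMIs, and 3 of them lay in melanoma clusters, beside 2 such WT cells with 3 Hspa5 UMIs. Without them the log2 ratio was −0.26 for Hspa5 and −1.16 for Herpud1, in a comparison chosen after seeing the data.

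**Figure D2:**
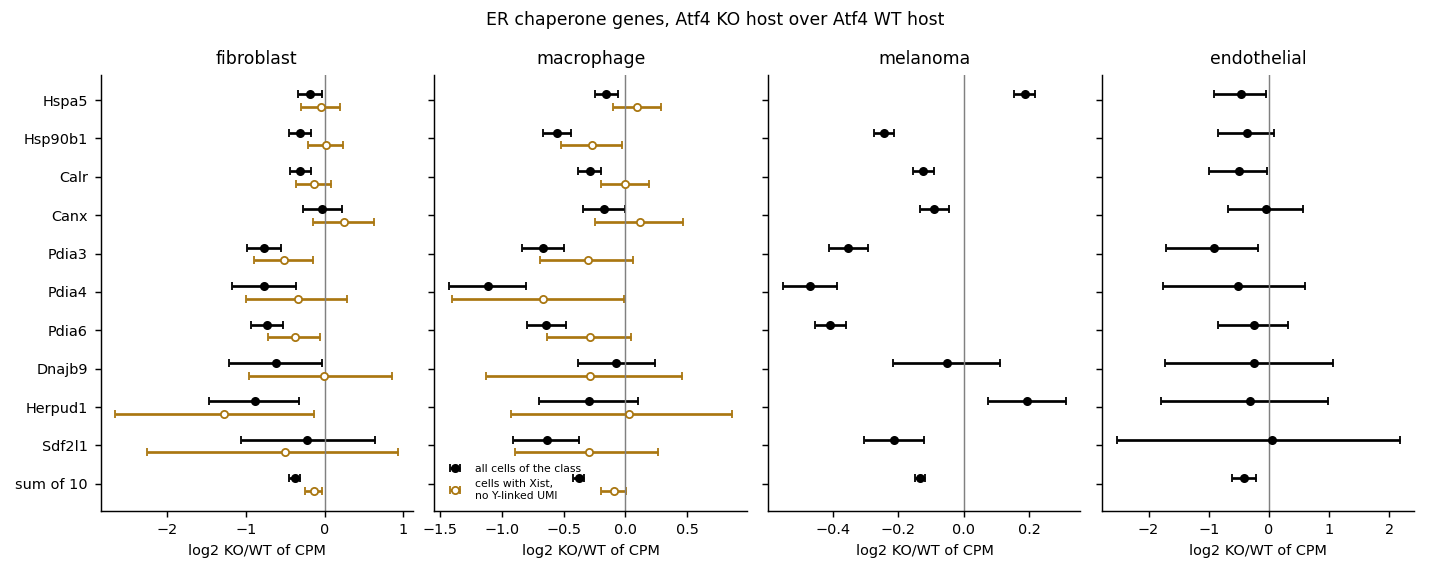
Log2 ratio of the Atf4 KO over the Atf4 WT library for each member in fibroblasts, macrophages, endothelial cells and melanoma cells, with exact 95% intervals for counting error; hollow points are Xist cells only. Filled points lie below 0 for all 10 members in fibroblasts and macrophages, most hollow points lie nearer 0, and Hspa5 and Herpud1 lie above 0 in melanoma cells.

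Fibroblasts were split by markers into activated (52 WT and 91 Δ/Δ cells), matrix (58 and 31), cycling (47 and 40) and adventitial (19 and 27) subtypes. The summed members were lower in the Δ/Δ library in each of these, with log2 ratios of −0.33 (−0.44 to −0.21), −0.53 (−0.71 to −0.35), −0.32 (−0.44 to −0.20) and −0.33 (−0.59 to −0.08). A vascular subtype held only 4 WT and 11 Δ/Δ cells, and its sum was at −0.09 (−0.53 to 0.36). A further 12 and 38 fibroblasts had no subtype, and their sum was at −0.49 (−0.80 to −0.17). The subtypes were not split further by sex, so the limit given for all fibroblasts holds for them too. Pdia3 was the one member of the 10 with an interval off 0 in all 4 of the larger subtypes: it was at 527 and 341 CPM in activated, 592 and 339 in matrix, 566 and 305 in cycling and 579 and 329 in adventitial fibroblasts. In vascular cells and in those with no subtype Pdia3 was at −0.26 and 0.30, on few UMIs, and both intervals included 0. Its levels thus lay close together across the 4 larger subtypes of 1 library, and the WT level was above the Δ/Δ level in each of them.

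For Calr, Hspa5 and Herpud1 the point values varied by subtype, but a difference between subtypes was not tested. The intervals of Calr and of Hspa5 overlapped between the subtypes named here. Calr was highest in WT matrix fibroblasts at 1396 CPM against 912 in Δ/Δ, a log2 ratio of −0.61 (−0.98 to −0.26), while in activated fibroblasts it was at 1191 and 1042, −0.19 (−0.42 to 0.04). Hspa5 was at 932 and 753 CPM in activated fibroblasts, −0.31 (−0.58 to −0.04), and at 838 and 914 in cycling ones, 0.13 (−0.15 to 0.40). Herpud1 had 23 and 3 UMIs in matrix fibroblasts, −1.95 (−4.32 to −0.22), and 14 and 23 in cycling ones, 0.80 (−0.22 to 1.87). The cycling subtype held cells from the melanoma clusters named above, without which its log2 ratio was −0.41 for the sum, −0.22 for Hspa5 and 0.20 for Herpud1.

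The members were also read against the amount of collagen transcript in a cell, since collagen is the main load of the fibroblast ER. Cells were ordered by the share of their UMIs from Col1a1, Col1a2 and Col3a1 and cut into a low, a middle and a high set of the same size over both libraries, after leaving out cells under 2000 UMIs, which gave 24 and 96, 65 and 56, and 72 and 47 cells. The summed log2 ratio was −0.26 (−0.40 to −0.12) in the low, −0.41 (−0.53 to −0.29) in the middle and −0.45 (−0.58 to −0.32) in the high set. These intervals overlapped, and a trend across the sets was not tested. Pdia3 was at −0.44, with an interval that included 0, then −0.67 and −0.83. The sum was lower in the Δ/Δ library in each set, but in the low set the intervals of 8 of the 10 members included 0, and Hspa5, Dnajb9 and Herpud1 were there at 0.05, 0.15 and 0.57. The libraries filled the sets unequally, and the sets were not split by sex.

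**Figure D3:**
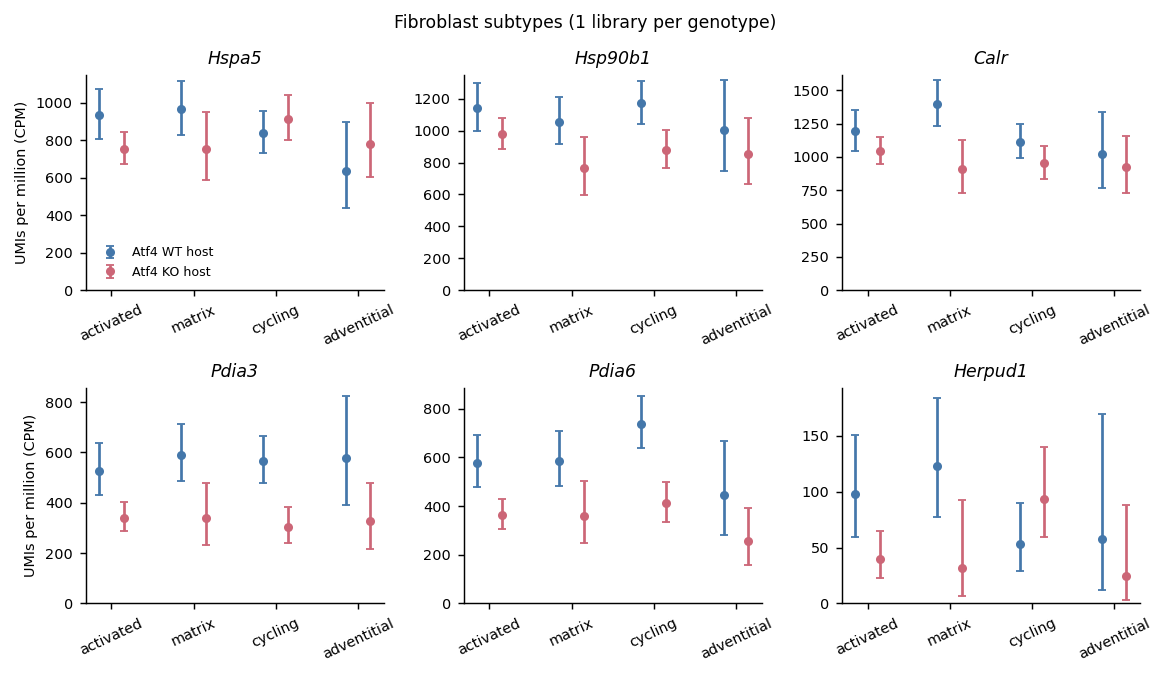
UMI counts scaled to 1e6 UMIs (CPM) of 6 members in 4 fibroblast subtypes for the Atf4 WT (blue) and Atf4 KO (red) hosts, with exact 95% Poisson intervals. Pdia3 is lower in the KO host in each of the 4 subtypes shown, whereas the points of Hspa5 and Herpud1 in cycling fibroblasts are above the WT level, with ratio intervals that include 0. Without the cells that clustered elsewhere, Hspa5 in cycling fibroblasts is at 838 CPM in the WT and 718 in the KO host.

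The median log2 ratio of the members in macrophages was −0.43 beside 0.002 over all genes. All 10 were again lower in the Δ/Δ library, 8 with an interval off 0, a count given without a share over all genes. Their sum was 4360 CPM in WT and 3355 in Δ/Δ macrophages, a log2 ratio of −0.38 (−0.42 to −0.33). In Xist cells this was −0.09 (−0.19 to 0.00), an interval that reached just past 0. Past 1.5-fold, 4 of 10 members were lower, where 6.08% of 6911 genes were, and 0 were higher, where 6.83% were. In Xist cells 1 of 10 was past 1.5-fold lower, where 17.5% of genes were, and none higher, where 9.71% were.

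Pdia4 was at 137 CPM in WT and 63.3 in Δ/Δ macrophages, a log2 ratio of −1.11 (−1.43 to −0.80), and at −0.67 (−1.40 to −0.01) in Xist cells, on 257 and 20 UMIs. Hsp90b1 was at 788 and 536 CPM, −0.56 (−0.67 to −0.44), and at −0.27 (−0.52 to −0.02) in Xist cells. These were the 2 members whose intervals were off 0 in Xist macrophages. Pdia3 was at 362 and 228 CPM, −0.67 (−0.84 to −0.50), and at −0.30 (−0.69 to 0.06) in Xist cells. Pdia6 was at 415 and 267 CPM, −0.64 (−0.80 to −0.48), and Sdf2l1 at 150.3 and 96.6 CPM, −0.64 (−0.91 to −0.37), and both intervals included 0 in Xist cells, at −0.29 for each. Hspa5 differed least among the abundant chaperones, at 1006 and 904 CPM, −0.15 (−0.25 to −0.06), and stood at 0.10 (−0.10 to 0.29) in Xist cells. Calr was at 1058 and 866 CPM, −0.29 (−0.38 to −0.20), but in Xist cells at 1061 and 1059.8, 0.00 (−0.20 to 0.19), so that a difference in Calr was not detectable in them. Canx was at 299 and 265 CPM, −0.17 (−0.34 to −0.01), Dnajb9 at 85.5 and 81.3, −0.07 (−0.39 to 0.24), and Herpud1 at 58.9 and 48.0, −0.30 (−0.70 to 0.10). In Xist macrophages these 3 were at 0.12, −0.29 and 0.03, each with an interval that included 0.

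In endothelial cells, with 24 Δ/Δ cells, the sum was 3625 CPM in WT and 2730.4 in Δ/Δ, a log2 ratio of −0.41 (−0.61 to −0.21). Pdia3 was at 355 and 189 CPM, −0.91 (−1.71 to −0.18), Calr at 693 and 488, −0.50 (−0.99 to −0.04), and Hspa5 at 825 and 598, −0.46 (−0.91 to −0.04). Those 3 had intervals off 0, and the other 7 did not. In Xist cells, of which the Δ/Δ library had 9, the sum was at −0.22 (−0.60 to 0.13), and Pdia3, Calr and Hspa5 at −0.01, −0.28 and −0.20, each with an interval that included 0. After thinning every cell to 2000 UMIs, Calr was at 0.23. Of 6 members with at least 50 UMIs, 1 was past 1.5-fold lower, where 9.52% of genes were, and 0 higher, where 8.2% were. In monocytes only Pdia6, at 427 and 229 CPM, had an interval off 0, at a log2 ratio of −0.90, and monocytes were not split by sex.

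The melanoma cells, in which Atf4 was at a log2 ratio of −0.16 (−0.22 to −0.09), had a smaller summed difference of the members, from 4043 CPM in the WT host to 3685 in the Δ/Δ host, a log2 ratio of −0.13 (−0.15 to −0.12), or −0.035 with cells classed by cluster. No member was past 1.5-fold lower, where 3.34% of 10924 genes were, or higher, where 6.62% were. Hspa5 was higher in the Δ/Δ host, at 757 and 860.4 CPM, 0.19 (0.15 to 0.22), and Herpud1 as well, at 56.9 and 65.1 CPM, 0.19 (0.07 to 0.31). These were the 2 members on the higher side. The disulphide isomerases were lower, as in the host classes: Pdia4 was at 149.9 and 108 CPM, −0.47 (−0.55 to −0.39), Pdia6 at 445 and 335, −0.41 (−0.46 to −0.36), and Pdia3 at 278 and 218, −0.35 (−0.41 to −0.29). Hsp90b1 was at 939 and 793 CPM, −0.24 (−0.28 to −0.21), Sdf2l1 at 112 and 96.8, −0.21 (−0.30 to −0.12), Calr at 839 and 769, −0.12 (−0.16 to −0.09), and Canx at 433 and 407, −0.09 (−0.14 to −0.05). Dnajb9, at 33.0 and 31.8 CPM, had an interval that included 0.

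The log2 ratio of a host class was also set against that of the melanoma cells from the same libraries. For the sum the difference, host minus melanoma, was −0.25 (−0.31 to −0.18) on the log2 scale in fibroblasts and −0.24 (−0.29 to −0.20) in macrophages. For Hspa5 it was −0.37 (−0.52 to −0.21) and −0.34 (−0.44 to −0.24), for Pdia3 −0.42 (−0.64 to −0.20) and −0.31 (−0.49 to −0.14), and for Pdia6 −0.32 (−0.53 to −0.12) and −0.23 (−0.39 to −0.07). Herpud1 stood furthest apart in fibroblasts, at −1.08 (−1.64 to −0.52). For Canx and Dnajb9 the interval of this difference included 0 in both host classes, and for Hsp90b1, Pdia4 and Sdf2l1 it included 0 in fibroblasts. These differences use all host cells, so host sex cannot be told apart from genotype in them. In Xist cells the summed log2 ratio was −0.14 in fibroblasts and −0.09 in macrophages, close to the −0.13 of melanoma cells. The difference in the sum was therefore not seen within Xist cells.

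Among cells with melanoma markers, the level of Hspa5 differed with the amount of melanoma marker RNA in a cell. Cells with at least 5 melanoma markers and no host class were banded by the share of their UMIs from these markers, and cells under 0.5% fell below the gate. In the Δ/Δ library Hspa5 was at 2955 CPM under 0.25%, then 1523, 981, 877, 814 and 736 in the bands up to 1.5% and above. In the WT library the order was the opposite, from 294 CPM in the lowest band through 348, 623, 642 and 735 to 839 in the highest. The 2 libraries therefore crossed, and in the highest band Hspa5 was lower in the Δ/Δ library, with a log2 ratio of −0.19 (−0.27 to −0.10). The lowest band held only 5 WT and 25 Δ/Δ cells and the next 28 and 107. In WT the lowest band rests on 10 Hspa5 and 2 Pdia4 UMIs. Hypoxia markers were there at 6210 CPM in WT and 2555 in Δ/Δ, so the low bands of the 2 libraries held unlike cells. Pdia4 ran the same way, from 58.9 and 317 CPM in the lowest band to 167 and 106 in the highest. The log2 ratio of Hspa5 in melanoma cells, 0.19 with a gate at 0.5%, was 0.28 with a gate at 0.25% and 0.38 with cells classed by cluster.

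**Figure D4:**
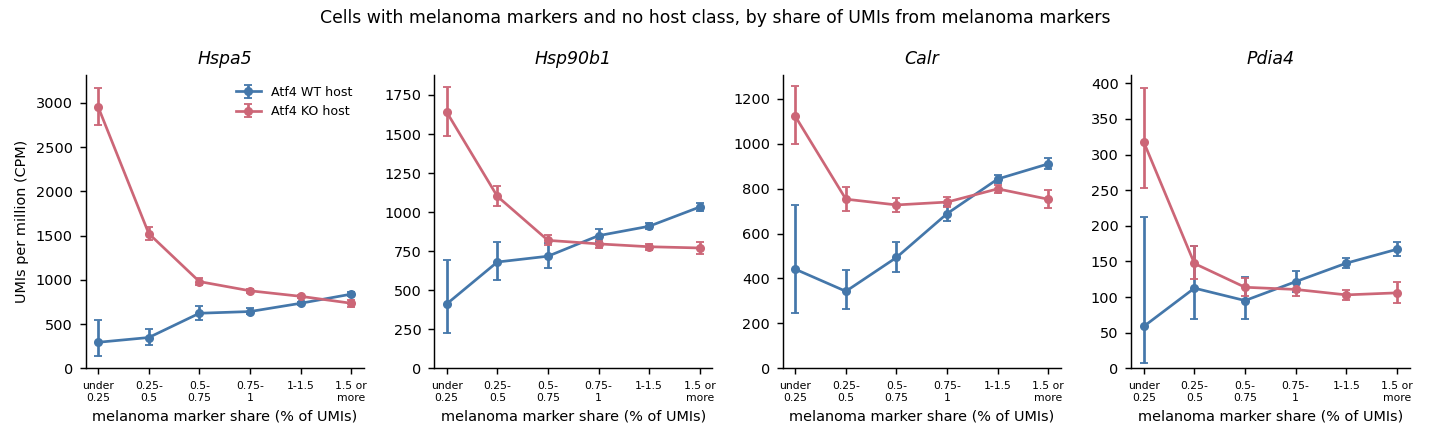
UMI counts scaled to 1e6 UMIs (CPM) of Hspa5, Hsp90b1, Calr and Pdia4 in cells with melanoma markers and no host class, by the percent of UMIs from melanoma markers, for the Atf4 WT (blue) and Atf4 KO (red) hosts, with exact 95% Poisson intervals. From the lowest to the highest band Hspa5 runs from 2955 to 736 CPM along the KO line and from 294 to 839 along the WT line.

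A few cells held very high Hspa5. After each cell was thinned to 2000 UMIs, 10 or more Hspa5 UMIs were found in 3 of 1600 WT melanoma cells (0.188%) and in 25 of 1641 Δ/Δ melanoma cells (1.52%). Over all cells with melanoma markers and no host class it was 3 of 1626 and 39 of 1745. In the 39 Δ/Δ cells Hsp90b1 was at 3321 CPM, Calr at 1910.3, Pdia6 at 1128 and Pdia4 at 756, all above their levels in cells with 1 to 2 Hspa5 UMIs, where they were at 727, 717, 283 and 97.9 CPM. The chaperones were thus high together in those cells. By state, the log2 ratio of Hspa5 was −0.01 in cycling melanoma cells, 0.25 in cells with hypoxia markers and 0.29 in cells with neither, and that of Pdia4 was −0.51, −0.93 and −0.40.

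The rest of the ER stress pathway was read from 5 lists, of which 76 of 78 genes were found. In fibroblasts 57 of them had at least 50 UMIs, 13 were past 1.5-fold lower and 2 higher in the Δ/Δ library, where 12.4% and 9.51% of all genes were, with a median log2 ratio of −0.34 beside −0.03 over all genes. Other ER chaperones and folding enzymes were 4 of 17 lower and 1 higher, ER-associated degradation 2 of 11 lower, the translocation channel and its helpers 0 of 15, sensors and transcription factors 3 of 5 lower, and the PERK and ATF4 arm 4 of 9 lower and 1 higher. Atf4, the gene removed in the Δ/Δ hosts, is counted among the lower genes of that arm and of the whole, at a log2 ratio of −2.06. Within the arm Atf5, an ATF4 relative and target, was at −1.24, and Atf3, a stress-induced repressor, at −1.08. Past 2-fold on the higher side were Vldlr, a lipoprotein receptor, at 1.31, and Ero1l, the oxidase that recharges the disulphide isomerases, at 1.28. In Xist fibroblasts 12 of 44 were lower and 1 higher, where 17.3% and 8.44% of all genes were. Atf4 was again among the lower ones, and the median was −0.28 beside −0.06 over all genes. Ero1l was there at 1.38, Atf5 at −1.66, Atf3 at −1.27, and Vldlr at 0.96 (−0.08 to 1.95), an interval that included 0.

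In macrophages 1 of 61 pathway genes was lower and 4 were higher, where 6.08% and 6.83% of all genes were, with a median log2 ratio of −0.09 beside −0.43 for the members. The lower one was Atf4 itself, the gene removed in the Δ/Δ hosts, at −2.02. In Xist macrophages 7 of 51 were lower, Atf4 among them, and 3 higher, where 17.5% and 9.71% of all genes were. In melanoma cells 0 of 74 were lower and 12 higher, where 3.34% and 6.62% of all genes were, 7 of them among the 12 genes of the PERK and ATF4 arm, whose median was 0.76. In endothelial cells 6 of 17 were lower, Atf4 among them, and 0 higher, where 9.52% and 8.2% of all genes were.

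**Figure D5:**
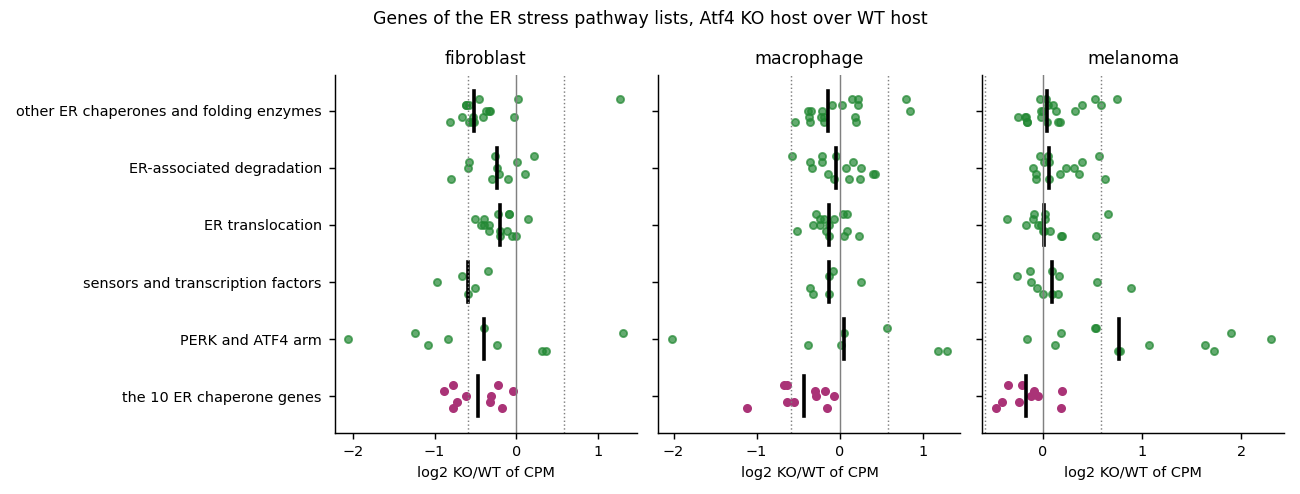
Log2 ratio of the Atf4 KO over the Atf4 WT library for genes of the members and 5 pathway lists in fibroblasts, macrophages and melanoma cells. Points are genes with at least 50 UMIs, bars are medians and dotted lines mark 1.5-fold; the PERK and ATF4 arm has a median of −0.39 in fibroblasts and 0.76 in melanoma cells.

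Over the 10 class sums (5 classes in 2 libraries), the genes whose log2(CPM + 10) followed the mean of the members most closely among 10974 genes were Tor1a (Pearson r = 0.95), Hbb-bs (0.90), Hba-a2 (0.86), Hba-a1 (0.86), Smim27 (0.83), Fbxo30 (0.83), Ndufa3 (0.83), Tmem170 (0.81), Atf4 (0.81) and Cenpi (0.80). The sums share libraries, free RNA and depth, and the globin genes among them are known from red blood cells, so the likeness is given as a description only.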

How the data were processed

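Single-cell RNA-seq was made from small B16F10 tumours, 1 library for each host genotype. The authors deposited raw UMI counts per gene and barcode, and the submitters' processing notes name Cell Ranger 3.1.0, Seurat 3.2.1 and GRCm38. From these counts, cells with 200 to 5000 genes and under 7.5% mitochondrial UMIs were kept. Doublets called by Scrublet in scanpy 1.11.5 (114 WT and 50 Δ/Δ) were kept and removed only as an alternative. A host class needed at least 3 of its markers and under 0.5% of UMIs from melanoma markers, and melanoma at least 3 markers and 0.5%. Macrophages took precedence over monocytes, and cells passing for several other host classes got none. This scoring rule was set after seeing the data. UMIs were summed per class and library. Levels are CPM with exact Poisson intervals and ratios have exact conditional binomial intervals (scipy 1.17.1), which cover counting error only. No test across replicates was possible. All 10 members are named, as are pathway genes with at least 50 UMIs that were past 2-fold with an interval off 0 in fibroblasts (at most 6 in each direction) and the 10 genes most alike. The members and lists were chosen with earlier results of these data known. Alternatives were other gates, limits on genes and mitochondrial UMIs, minimum UMIs and fold, Leiden clusters, TMM scaling (edgeR 4.0.16), thinning to 2000 UMIs, free RNA subtraction, Xist cells and, added after seeing the data, a 0.25% gate, cells agreed by cluster and gate, and counts past 1.5-fold in Xist cells. The ratio intervals were tried on simulated class sums that held counting error only. Gates, subtypes, bands and free RNA estimates were not simulated.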

Additional observations from a re-analysis of the deposited data

Results flagged for a closer look

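For Hspa5 and Herpud1 the cell classes, with all cells used, stood on opposite sides of 0 for the same contrast of hosts. The log2 ratio of the Δ/Δ over the WT library for Hspa5 was −0.18 in fibroblasts, −0.15 in macrophages and −0.46 in endothelial cells, against 0.19 in melanoma cells and 0.92 in the cells given no class. The cells given no class were an unlike mix in the 2 libraries and included cells under the 0.5% melanoma gate. Their fibroblast markers were at 2203 CPM in WT and 868 in Δ/Δ, and their Atf4 at 238 and 241. The host values mix sex with genotype: in Xist cells Hspa5 was at −0.05 in fibroblasts, 0.10 in macrophages and −0.20 in endothelial cells, each with an interval that included 0, and with a gate of 2 markers it was at 0.23 in fibroblasts. For Herpud1 the log2 ratio was −0.89 in fibroblasts, against 0.19 in melanoma cells and 0.54 in the cells given no class. In those cells 9 of the 10 members were higher in the Δ/Δ library and Pdia3 was lower, at −0.19. No share over all genes is given for the cells without a class, so this count describes the members only. Their summed log2 ratio was 0.38 (0.35 to 0.42), from 3858 CPM in WT to 5033 in Δ/Δ. In Xist fibroblasts Herpud1 was at −1.28, and with a gate of 2 markers it was at −0.25. With 1 library per genotype, the difference between classes was not tested across replicates.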

How the results depend on the processing

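No paired analysis was possible because there was only 1 library of either genotype. Across the alternatives, 453 values of single members stayed within the counting interval of the main value, 38 moved past it on the same side of 0 or from a value whose interval included 0, and 5 changed sign from a value whose interval was off 0. Those 5 were Hspa5 in fibroblasts with a gate of 2 markers (0.23), Hsp90b1 in Xist fibroblasts (0.012), Hspa5 (0.10) and Canx (0.12) in Xist macrophages, and Calr in thinned endothelial cells (0.23). A further 22 values changed sign where the main interval included 0, for Canx and Sdf2l1 in fibroblasts (Sdf2l1 0.96 with a gate of 2 markers), Herpud1 in macrophages, Dnajb9 in melanoma cells, and Canx, Pdia6 and Sdf2l1 in endothelial cells. The summed log2 ratio moved to −0.20 in fibroblasts with a gate of 2 markers and to −0.14 in Xist cells; in macrophages to −0.43 when thinned and −0.094 in Xist cells; and in melanoma cells to −0.035 by Leiden clusters, −0.11 without mitochondrial and ribosomal UMIs, −0.17 by TMM, −0.10 when thinned and −0.083 with a 0.25% gate. Pathway genes past the fold numbered 4 lower and 1 higher in fibroblasts, 2 higher in macrophages and 0 lower in endothelial cells at a minimum of 200 UMIs, and at 2-fold 3 lower in fibroblasts, 2 higher in macrophages, 5 higher in melanoma cells and 2 lower in endothelial cells. Atf4 itself was among those lower in fibroblasts at either setting. Pdia3, Pdia4 and Pdia6 were lower in the Δ/Δ library in 149 of 150 recomputed values, some with an interval that included 0. This was not particular to them. Calr was lower in 12 of 13 values in endothelial cells and in all values of fibroblasts, macrophages and melanoma cells. Hsp90b1 was lower in 12 of 13 in fibroblasts and in all values of the other 3 classes. The recomputed values reuse the same 2 libraries and are not independent. Herpud1 and Sdf2l1 in endothelial cells had a count of 0 when thinned and in Xist cells, and no ratio was formed. Subtracting free melanoma RNA changed no direction in fibroblasts or macrophages. Depth limits Sdf2l1 in fibroblasts and most members in endothelial cells.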
